A study of Mus musculus with 13 samples.

Results

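The genes of DNA replication and deoxynucleotide supply were followed in donor CD4+ T cells of mice with graft-versus-host disease after treatment with either of 2 ligands of the aryl hydrocarbon receptor (AhR). The set was a fixed list of 49 gene symbols covering the MCM helicase, GINS, helicase activation, origin licensing, the origin recognition complex (ORC), the DNA polymerases, the sliding clamp and its loader, the single-strand binding protein RPA, Okazaki fragment maturation, the histone chaperone CAF-1 and the nucleotide enzymes. The list was chosen with earlier results of these data known, so its contrast with all tested genes is not independent of them. Each gene was represented by its brightest probe set, on average across the 13 arrays, among those annotated to exactly 1 symbol. This found 48 of the 49 listed genes among 22180 genes on the array, and all 48 exceeded the floor for testing (4.31, the median value of the table) in 4 arrays or more. The clamp loader gene Rfc4 shared its probe set with Eif4a2 and was left out.

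Hosts were B6D2F1 mice, hybrids of C57BL/6 and DBA/2, that had been given CFSE-labelled C57BL/6 splenocytes into a vein, so that the transferred T cells met the DBA/2 antigens of the host; donors and hosts were 10 to 12 weeks old. TCDD was injected into the abdominal cavity once, at 15 µg/kg on day 0. Cl-BBQ was given at 10 mg/kg on days 0, 1 and 2, and vehicle on those same days. The TCDD and vehicle groups therefore differed in treatment days as well as in ligand, and these cannot be told apart. On day 3 (72 h) the CD4+ cells that had diluted CFSE by at least 2 divisions were taken from spleen and lymph node with CD4 beads and then by flow sorting, so cells that had divided less were not measured in any group. The labels call the 4 vehicle, 4 TCDD and 5 Cl-BBQ samples biological replicates, and each gave 1 array. AhR is a transcription factor that moves to the nucleus when it binds a ligand. TCDD, or dioxin, is its prototype ligand, and Cl-BBQ is a second ligand. All 3 groups had received the cell transfer, and no group without the transfer was used here.

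Before S phase, ORC, CDC6 and CDT1 load the MCM ring onto replication origins. Firing then adds CDC45 and GINS to MCM to make the moving helicase, behind which the polymerases, the clamp PCNA, the flap nucleases and DNA ligase copy the strands while ribonucleotide reductase and thymidylate synthase supply the building blocks. Many of these genes are textbook targets of the E2F transcription factors, which drive the G1 to S transition, and T cells that meet antigen induce them before they divide.

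The promoters of these genes are shown where they hold the letters of an E2F site, because that site is the sequence feature that the set is known for. The RefSeq table for GRCm38.p6 held windows of 250 bases before to 50 bases after the start for 41 of the 49 listed genes (49 windows, since some genes have several starts). The letters searched were TTTCCCGC, TTTGGCGC, TTTGCCGC and TTTCGCGC on both strands, and they occurred in 15 of the 49 windows (30.6%), against 2.26% of all 32851 windows and 3.9% of the windows of the tested genes. In 9 genes a match lay wholly before the start. The 170 bases before the start of each are printed 5′ to 3′ on the gene's own strand, with the matching letters in capitals.
Cdc6 (chr11:98907981-98908150, plus strand): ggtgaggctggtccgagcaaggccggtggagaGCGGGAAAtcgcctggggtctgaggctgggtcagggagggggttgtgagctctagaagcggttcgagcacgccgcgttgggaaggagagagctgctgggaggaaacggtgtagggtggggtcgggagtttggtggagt
Gins3 (chr8:95633389-95633558, plus strand): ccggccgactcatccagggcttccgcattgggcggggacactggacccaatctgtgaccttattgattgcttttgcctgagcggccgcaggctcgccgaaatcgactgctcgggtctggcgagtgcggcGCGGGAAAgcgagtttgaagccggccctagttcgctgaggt
Mcm5 (chr8:75109339-75109508, plus strand): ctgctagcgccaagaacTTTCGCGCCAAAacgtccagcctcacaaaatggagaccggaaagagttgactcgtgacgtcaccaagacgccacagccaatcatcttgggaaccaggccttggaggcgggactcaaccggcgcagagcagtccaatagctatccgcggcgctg
Mcm6 (chr1:128359706-128359875, minus strand): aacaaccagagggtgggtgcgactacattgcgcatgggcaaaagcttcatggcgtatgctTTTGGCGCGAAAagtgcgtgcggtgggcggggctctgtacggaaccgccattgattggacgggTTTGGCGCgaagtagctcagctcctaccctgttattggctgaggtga
Mcm7 (chr5:138171884-138172053, minus strand): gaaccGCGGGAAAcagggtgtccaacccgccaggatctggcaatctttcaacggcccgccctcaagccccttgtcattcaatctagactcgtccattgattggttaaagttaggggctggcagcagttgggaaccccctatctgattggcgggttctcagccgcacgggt
Orc1 (chr4:108579284-108579453, plus strand): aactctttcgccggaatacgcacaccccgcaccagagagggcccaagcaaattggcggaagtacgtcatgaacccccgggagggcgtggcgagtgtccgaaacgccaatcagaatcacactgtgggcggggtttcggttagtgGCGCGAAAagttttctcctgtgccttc
Orc3 (chr4:34614943-34615112, minus strand): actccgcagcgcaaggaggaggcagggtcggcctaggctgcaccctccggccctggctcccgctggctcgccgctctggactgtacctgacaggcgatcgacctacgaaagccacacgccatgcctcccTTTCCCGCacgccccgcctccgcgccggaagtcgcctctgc
Pola1 (chrX:93632156-93632325, minus strand): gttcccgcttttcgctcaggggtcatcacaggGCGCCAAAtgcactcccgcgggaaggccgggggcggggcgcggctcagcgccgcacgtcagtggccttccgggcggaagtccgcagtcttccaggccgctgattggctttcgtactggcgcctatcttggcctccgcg
Rfc3 (chr5:151651209-151651378, minus strand): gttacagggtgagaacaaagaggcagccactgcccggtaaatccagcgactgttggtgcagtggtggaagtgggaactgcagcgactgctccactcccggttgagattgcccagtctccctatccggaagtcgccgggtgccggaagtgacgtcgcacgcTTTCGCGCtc
In Mcm5 and in Mcm6 a match on one strand overlapped a match on the other, and Mcm6 had a separate match nearer the start. Among the 9 genes were Gins3 and Orc3, for which neither ligand passed the test, so the letters were also present in promoters of genes without a called change. Over all windows, 10 of 30 windows (33.3%) of genes called lower with both ligands and 2 of 9 windows (22.2%) of genes called with neither held a match. The CCAAT letters, bound by NF-Y, were in 53.1% of the members' windows, 37.4% of all windows and 37.1% of the windows of tested genes. The cell cycle homology letters TTTGAA, an element of late cell cycle genes, were in 10.2%, 17.9% and 12.1% of these, and the AhR core TNGCGTG was in 12.2%, 5.07% and 7.74%. The AhR core was in 1 of 30 windows (3.33%) of members called lower with both ligands and in 2 of 9 windows (22.2%) of members called with neither. These shares describe letters in fixed windows and carry no test.

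RNA of the replication genes was lower in both ligand groups than with vehicle. With TCDD, 33 of 48 members fell (68.8%) and none rose, against a background of 3.5% of 12710 tested genes called lower and 3.21% called higher (limma, Benjamini-Hochberg adjusted p under 0.05). With Cl-BBQ, 40 of 48 fell (83.3%) and none rose, against 6.03% called lower and 5.31% called higher. The median log2 difference of the members was -0.74 with TCDD and -0.83 with Cl-BBQ, while that of all tested genes was 0 and -0.01. The fall was at least 2-fold for 13 of the 33 called members with TCDD and for 17 of the 40 with Cl-BBQ. Falls of that size were not counted over all tested genes, so the shares above are no background for these 2 counts. Before adjustment, 43 of 48 members had a p under 0.05 in each comparison, Rpa1 among them on the higher side, and of all 12710 tested genes 2284 did so with TCDD and 2924 with Cl-BBQ. Differences below are log2 differences between group means with limma's standard error, over 4 vehicle and 4 TCDD or 5 Cl-BBQ arrays, and levels of different genes are not set against each other because each probe set has its own response.

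The 2 comparisons used the same 4 vehicle arrays, so a member that passed in both is not supported by independent controls. In the mean over the 48 members, relative to the vehicle mean, the vehicle arrays read 0.19, 0.06, -0.05 and -0.20, the TCDD arrays -0.62, -0.75, -0.69 and -0.75, and the Cl-BBQ arrays -0.82, -0.86, -0.81, -0.78 and -0.83 on the log2 scale. The ligand groups lay wholly below vehicle in this mean, and the vehicle group was the most spread (SD 0.17, against 0.06 and 0.03). Vehicle replicate 1 had the highest vehicle level for 33 of 48 members and vehicle replicate 4 the lowest for 30. Without vehicle replicate 1, 25 members fell with TCDD and 37 with Cl-BBQ. In that fit 644 and 1190 of 12710 tested genes were called in either direction, against 853 and 1441 with all arrays. All TCDD arrays lay below all vehicle arrays for 37 members, against 7.28% of all tested genes, and all Cl-BBQ arrays did so for 35, against 6.8%. In RNA from a sorted pool of cells, fewer cells in S phase and less of these RNAs per cell cannot be told apart. RMA gave all arrays a common distribution, so a shift of the whole transcriptome would not show.

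**Figure D1:**
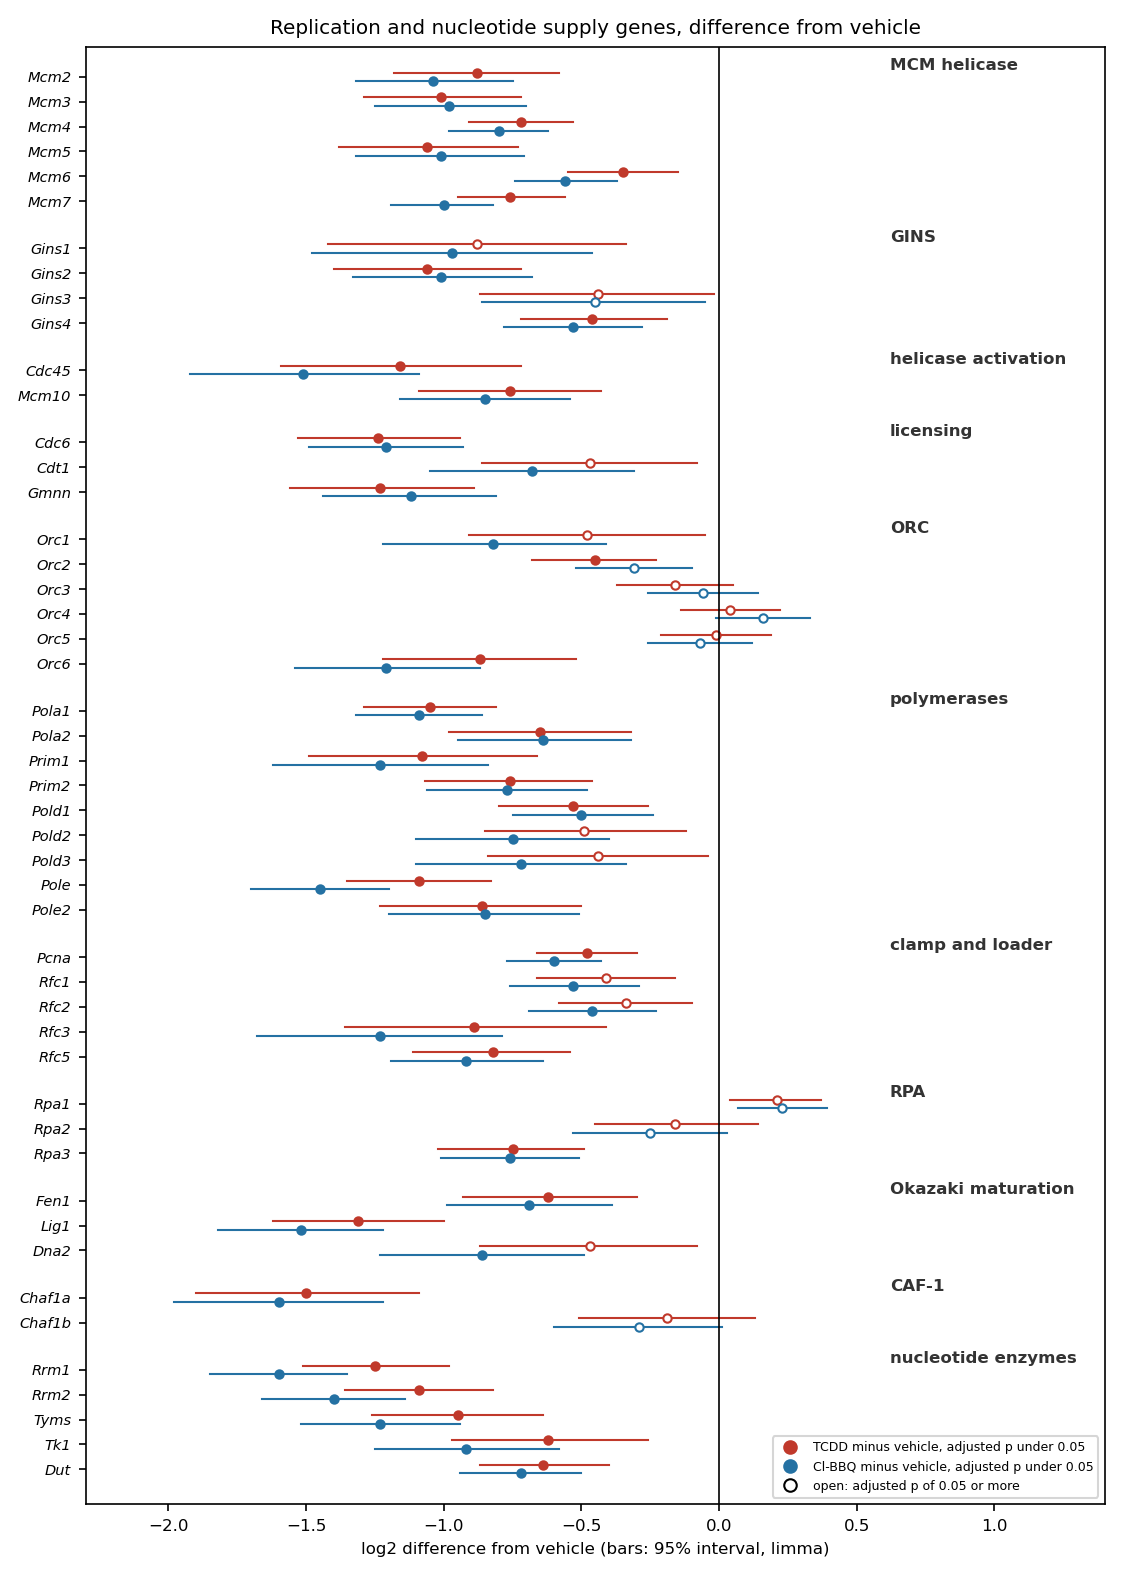
Log2 difference from vehicle (horizontal axis) for each of the 48 members, grouped by complex, with TCDD in red, Cl-BBQ in blue and limma's 95% interval as the bar; filled points passed the test. All but Orc4 and Rpa1 lie below 0 in both comparisons (Orc5 with TCDD is at 0 or above under 4 alternative settings), and Chaf1a and Rrm1 lie farthest to the left with Cl-BBQ.

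The MCM ring, the motor of the replicative helicase, fell as a whole: 6 of 6 subunit genes were called lower with TCDD (median -0.82) and 6 of 6 with Cl-BBQ (median -0.99), and in all of them the ligand arrays lay below the vehicle arrays. Mcm2 changed most with Cl-BBQ. Mcm2 had log2 levels of 8.10, 7.79, 7.73 and 7.70 in the vehicle arrays, 7.07, 6.77, 7.07 and 6.90 in the TCDD arrays and 7.07, 6.69, 6.64, 6.50 and 7.05 in the Cl-BBQ arrays. The lowest vehicle array was above every treated array, and Mcm2 fell, with log2 differences of -0.88 ± 0.14 (SE) for TCDD and -1.04 ± 0.13 for Cl-BBQ (limma, adjusted p = 0.0011 and 8.3e-05), which is a 1.84-fold and a 2.05-fold lower level. Mcm3 fell, with log2 differences of -1.01 ± 0.13 (SE) for TCDD and -0.98 ± 0.13 for Cl-BBQ (limma, adjusted p = 0.00023 and 9.4e-05). Mcm4 fell, with log2 differences of -0.72 ± 0.09 (SE) for TCDD and -0.80 ± 0.08 for Cl-BBQ (limma, adjusted p = 0.00013 and 1.3e-05), and Mcm5 fell, with log2 differences of -1.06 ± 0.15 (SE) for TCDD and -1.01 ± 0.14 for Cl-BBQ (limma, adjusted p = 0.00042 and 0.0002). These are also ring subunits, and their intervals stayed below -0.5. Mcm7, a subunit of the same ring, was lower again in each Cl-BBQ array than in any TCDD array. Mcm7 had log2 levels of 7.40, 7.38, 7.31 and 7.08 in the vehicle arrays, 6.54, 6.42, 6.61 and 6.58 in the TCDD arrays and 6.33, 6.26, 6.30, 6.35 and 6.20 in the Cl-BBQ arrays. Mcm7 fell, with log2 differences of -0.76 ± 0.09 (SE) for TCDD and -1.0 ± 0.09 for Cl-BBQ (limma, adjusted p = 1e-04 and 1.8e-06). The smallest change of the ring was that of Mcm6. Mcm6 had log2 levels of 9.65, 9.48, 9.38 and 9.49 in the vehicle arrays, 9.29, 9.05, 9.07 and 9.17 in the TCDD arrays and 9.09, 8.95, 8.90, 8.85 and 8.93 in the Cl-BBQ arrays. Both ligand groups lay below vehicle and overlapped each other, and Mcm6 fell, with log2 differences of -0.35 ± 0.09 (SE) for TCDD and -0.56 ± 0.09 for Cl-BBQ (limma, adjusted p = 0.033 and 0.00052). For Mcm6 with TCDD the call was lost in 8 of 22 alternative settings (adjusted p from 0.0094 to 0.1 over all of them), among these the fits without vehicle replicate 1, 2 or 4 or TCDD replicate 2, 3 or 4.

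GINS, which joins MCM and CDC45 in the active helicase, had 2 of 4 genes called lower with TCDD (median -0.67) and 3 of 4 with Cl-BBQ (median -0.75). Gins2 changed most. Gins2 had log2 levels of 8.70, 8.23, 8.05 and 7.91 in the vehicle arrays, 7.38, 7.01, 7.15 and 7.12 in the TCDD arrays and 7.39, 7.04, 7.40, 7.27 and 6.97 in the Cl-BBQ arrays. The treated arrays lay at 7.40 or lower and the vehicle arrays at 7.91 or higher, and Gins2 fell, with log2 differences of -1.06 ± 0.16 (SE) for TCDD and -1.01 ± 0.15 for Cl-BBQ (limma, adjusted p = 0.00066 and 0.00035). Gins1 was the most variable member of the complex with vehicle (SD 0.54). Gins1 had log2 levels of 6.60, 6.55, 6.13 and 5.44 in the vehicle arrays, 5.64, 4.86, 5.33 and 5.38 in the TCDD arrays and 4.73, 5.48, 4.97, 5.46 and 5.42 in the Cl-BBQ arrays. Vehicle replicate 4, at 5.44, lay inside the range of both ligand groups, and Gins1 differed from vehicle by -0.88 ± 0.25 (SE) on the log2 scale with TCDD and by -0.97 ± 0.24 with Cl-BBQ (limma, adjusted p = 0.052 and 0.015). Gins1 with TCDD passed in 6 of 21 alternative settings (adjusted p from 0.006 to 0.15 over all of them), among these the fits without vehicle replicate 4 or Cl-BBQ replicate 1. For Gins1 with Cl-BBQ the call was lost in 3 of 21 alternative settings (adjusted p from 0.0014 to 0.059 over all of them), among these the fits without vehicle replicate 1 or 2. Gins3 passed in neither comparison. Gins3 had log2 levels of 6.58, 6.55, 6.54 and 6.36 in the vehicle arrays, 6.43, 5.79, 6.41 and 5.63 in the TCDD arrays and 6.51, 5.68, 5.81, 6.26 and 6.01 in the Cl-BBQ arrays. Each ligand group held arrays near the vehicle level and arrays well below it, and Gins3 differed from vehicle by -0.44 with TCDD (95% interval -0.87 to -0.02) and -0.45 with Cl-BBQ (-0.86 to -0.05), with adjusted p of 0.26 and 0.16 (limma). Gins4 fell, with log2 differences of -0.46 ± 0.12 (SE) for TCDD and -0.53 ± 0.12 for Cl-BBQ (limma, adjusted p = 0.037 and 0.0073). For Gins4 with TCDD the call was lost in 8 of 22 alternative settings (adjusted p from 0.017 to 0.11 over all of them), among these the fits without vehicle replicate 1, 2 or 3 or TCDD replicate 3 or 4 or Cl-BBQ replicate 5.

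The genes that switch the loaded helicase on were both called lower with each ligand. Cdc45, the partner of MCM and GINS at the fork, fell 2.23-fold with TCDD and 2.84-fold with Cl-BBQ. Cdc45 had log2 levels of 7.40, 7.22, 7.20 and 6.99 in the vehicle arrays, 6.53, 5.67, 6.03 and 5.95 in the TCDD arrays and 5.15, 6.08, 5.52, 5.74 and 5.99 in the Cl-BBQ arrays. All treated arrays were below the lowest vehicle array, with a wide spread among the ligand arrays (SD 0.36 with TCDD and 0.38 with Cl-BBQ), and Cdc45 fell, with log2 differences of -1.16 ± 0.20 (SE) for TCDD and -1.51 ± 0.19 for Cl-BBQ (limma, adjusted p = 0.0022 and 8e-05). Mcm10, an origin firing factor that is no part of the ring, changed less. Mcm10 had log2 levels of 6.54, 6.08, 6.0 and 6.03 in the vehicle arrays, 5.41, 5.57, 5.54 and 5.10 in the TCDD arrays and 5.60, 5.33, 5.13, 5.46 and 5.07 in the Cl-BBQ arrays. Vehicle replicate 1 stood above its group, the other vehicle arrays were still above all treated ones, and Mcm10 fell, with log2 differences of -0.76 ± 0.15 (SE) for TCDD and -0.85 ± 0.14 for Cl-BBQ (limma, adjusted p = 0.006 and 0.001).

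Of the 3 licensing genes, Cdc6 and Gmnn were called lower with both ligands and Cdt1 with Cl-BBQ. CDC6 and CDT1 load MCM, and geminin, the product of Gmnn, inhibits CDT1 outside G1, so with Cl-BBQ both loaders and the inhibitor of loading had lower RNA. Cdc6 had log2 levels of 7.15, 6.88, 6.51 and 6.56 in the vehicle arrays, 5.75, 5.54, 5.50 and 5.35 in the TCDD arrays and 5.71, 5.45, 5.53, 5.44 and 5.68 in the Cl-BBQ arrays. Both ligand groups sat near 5.5, more than 1 log2 unit under the vehicle mean of 6.77, and Cdc6 fell, with log2 differences of -1.24 ± 0.14 (SE) for TCDD and -1.21 ± 0.13 for Cl-BBQ (limma, adjusted p = 5.2e-05 and 1.8e-05). Gmnn fell, with log2 differences of -1.23 ± 0.16 (SE) for TCDD and -1.12 ± 0.15 for Cl-BBQ (limma, adjusted p = 0.00016 and 1e-04). Cdt1 had log2 levels of 7.41, 6.99, 7.21 and 7.12 in the vehicle arrays, 6.91, 6.40, 6.72 and 6.81 in the TCDD arrays and 7.02, 6.06, 6.57, 6.64 and 6.21 in the Cl-BBQ arrays. The TCDD arrays were below all vehicle arrays, while Cl-BBQ replicate 1 (7.02) was above vehicle replicate 2. Cdt1 differed from vehicle by -0.47 ± 0.18 (SE) on the log2 scale with TCDD and by -0.68 ± 0.17 with Cl-BBQ (limma, adjusted p = 0.18 and 0.018). Cdt1 with TCDD passed in 1 of 22 alternative settings (adjusted p from 0.032 to 0.39 over all of them) (replicate block). For Cdt1 with Cl-BBQ the call was lost in 2 of 22 alternative settings (adjusted p from 0.0023 to 0.067 over all of them), among these the fits without vehicle replicate 1 or 3.

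ORC marks the origins, and together with RPA it had the medians nearest to 0. With TCDD 2 of 6 subunit genes were called lower (Orc2 and Orc6, median of the 6 genes -0.31), and with Cl-BBQ also 2 of 6 (Orc1 and Orc6, median -0.19). Orc6, the smallest subunit, had the largest difference. Orc6 had log2 levels of 7.58, 7.60, 6.83 and 7.15 in the vehicle arrays, 6.41, 6.49, 6.50 and 6.28 in the TCDD arrays and 5.87, 6.08, 6.43, 6.11 and 5.92 in the Cl-BBQ arrays. Vehicle levels spread from 6.83 to 7.60, all above the treated arrays, and Orc6 fell, with log2 differences of -0.87 ± 0.16 (SE) for TCDD and -1.21 ± 0.16 for Cl-BBQ (limma, adjusted p = 0.0039 and 8.7e-05). Orc1, the subunit whose level is known to rise toward S phase, was dim. Orc1 had log2 levels of 5.36, 5.03, 5.04 and 4.54 in the vehicle arrays, 4.46, 4.69, 4.55 and 4.36 in the TCDD arrays and 3.87, 3.93, 3.93, 4.76 and 4.39 in the Cl-BBQ arrays. Its Cl-BBQ mean of 4.18 lay under the floor, where array values compress differences, and the groups overlapped. Orc1 differed from vehicle by -0.48 ± 0.20 (SE) on the log2 scale with TCDD and by -0.82 ± 0.19 with Cl-BBQ (limma, adjusted p = 0.22 and 0.01). Orc2 passed with TCDD and just missed with Cl-BBQ. Orc2 had log2 levels of 6.66, 6.64, 6.55 and 6.20 in the vehicle arrays, 5.95, 6.10, 6.06 and 6.12 in the TCDD arrays and 6.22, 6.09, 6.25, 6.22 and 6.22 in the Cl-BBQ arrays. The Cl-BBQ arrays lay between 6.09 and 6.25 and overlapped vehicle replicate 4, at 6.20. Orc2 differed from vehicle by -0.45 ± 0.10 (SE) on the log2 scale with TCDD and by -0.31 ± 0.10 with Cl-BBQ (limma, adjusted p = 0.015 and 0.058). For Orc2 with TCDD the call was lost in 4 of 22 alternative settings (adjusted p from 0.0015 to 0.055 over all of them), among these the fits without vehicle replicate 1 or 2 or TCDD replicate 1. Orc2 with Cl-BBQ passed in 2 of 22 alternative settings (adjusted p from 0.0053 to 0.17 over all of them), among these the fit without vehicle replicate 4.

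The other 3 ORC genes passed in neither comparison, and their levels overlapped between groups. Orc3 had log2 levels of 7.77, 7.68, 7.89 and 7.74 in the vehicle arrays, 7.45, 7.70, 7.59 and 7.70 in the TCDD arrays and 7.71, 7.74, 7.56, 7.92 and 7.64 in the Cl-BBQ arrays. Orc3 differed from vehicle by -0.16 with TCDD (95% interval -0.37 to 0.05) and -0.06 with Cl-BBQ (-0.26 to 0.14), with adjusted p of 0.45 and 0.79 (limma). Orc4, an ATPase-type subunit, differed by 0.04 with TCDD (95% interval -0.14 to 0.22) and 0.16 with Cl-BBQ (-0.01 to 0.33), with adjusted p of 0.86 and 0.25 (limma). Orc5 differed by -0.01 with TCDD (95% interval -0.21 to 0.19) and -0.07 with Cl-BBQ (-0.26 to 0.12), with adjusted p of 0.97 and 0.73 (limma), and its TCDD value turned to 0 or above under 4 alternative settings. None of these intervals reached a fall of 0.5, so a fall of the size of the median over all members (-0.74 and -0.83) lay outside them.

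**Figure D2:**
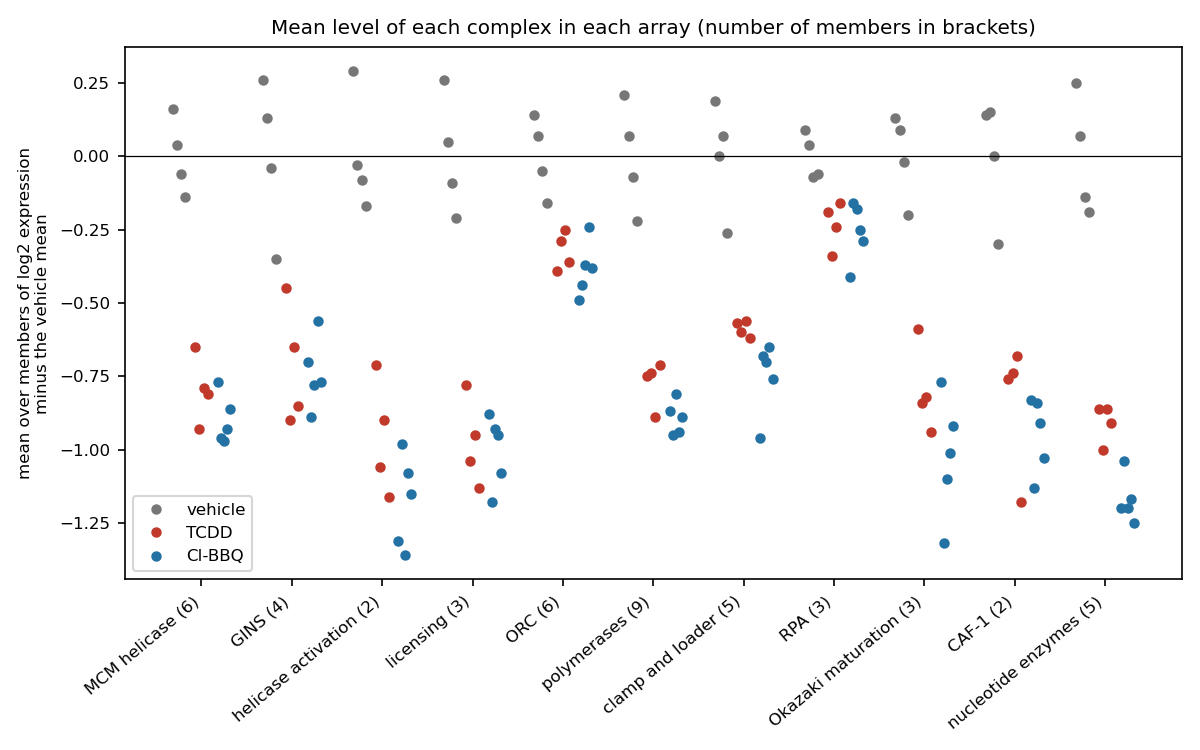
Mean over the members of each complex of log2 expression minus the vehicle mean (vertical axis), with 1 point per array in the vehicle, TCDD and Cl-BBQ groups. Ligand arrays lie below the vehicle arrays in each complex; ORC (-0.39 to -0.25 with TCDD, -0.49 to -0.24 with Cl-BBQ) and RPA (-0.34 to -0.16 and -0.41 to -0.16) are nearest to 0, and the nucleotide enzymes (-1.0 to -0.86 and -1.25 to -1.04) are among the farthest.

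All 9 polymerase genes of the set were called lower with Cl-BBQ (median -0.77) and 7 of 9 with TCDD (median -0.76). Further polymerase subunit genes outside the set passed with neither ligand. These were Pole3 (-0.42 with TCDD and -0.28 with Cl-BBQ), Pole4 (-0.20 and -0.16) and Pold4 (0.12 and 0.14). Pole, the catalytic subunit of the leading strand polymerase, changed most. Pole had log2 levels of 6.91, 6.70, 6.61 and 6.34 in the vehicle arrays, 5.66, 5.47, 5.45 and 5.60 in the TCDD arrays and 5.26, 5.29, 5.30, 4.96 and 5.14 in the Cl-BBQ arrays. The groups were stacked without overlap, vehicle above TCDD above Cl-BBQ, and Pole fell, with log2 differences of -1.09 ± 0.12 (SE) for TCDD and -1.45 ± 0.12 for Cl-BBQ (limma, adjusted p = 4.7e-05 and 8.7e-07), a 2.13-fold and a 2.73-fold lower level. A further Pole probe set was under the floor in all arrays and gave -0.06 and -0.22. Its partner subunit gene Pole2 fell, with log2 differences of -0.86 ± 0.17 (SE) for TCDD and -0.85 ± 0.16 for Cl-BBQ (limma, adjusted p = 0.0054 and 0.0022). The primer-making complex fell as a group. Pola1, its polymerase, fell, with log2 differences of -1.05 ± 0.11 (SE) for TCDD and -1.09 ± 0.11 for Cl-BBQ (limma, adjusted p = 3.2e-05 and 6.1e-06), and Prim1, its primase, fell, with log2 differences of -1.08 ± 0.19 (SE) for TCDD and -1.23 ± 0.18 for Cl-BBQ (limma, adjusted p = 0.0025 and 0.00031). Prim2, the large primase subunit, fell, with log2 differences of -0.76 ± 0.14 (SE) for TCDD and -0.77 ± 0.14 for Cl-BBQ (limma, adjusted p = 0.0035 and 0.0012), and Pola2, the accessory subunit, fell, with log2 differences of -0.65 ± 0.16 (SE) for TCDD and -0.64 ± 0.15 for Cl-BBQ (limma, adjusted p = 0.018 and 0.0097). For Pola2 with TCDD the call was lost in 5 of 22 alternative settings (adjusted p from 0.0074 to 0.062 over all of them), among these the fits without vehicle replicate 1 or 2 or TCDD replicate 1 or 3. For Pola2 with Cl-BBQ the call was lost in 1 of 22 alternative settings (adjusted p from 0.0026 to 0.052 over all of them) (replicate block).

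The lagging strand polymerase changed less than Pole. Pold1 had log2 levels of 6.94, 6.87, 7.12 and 6.68 in the vehicle arrays, 6.30, 6.38, 6.39 and 6.44 in the TCDD arrays and 6.69, 6.07, 6.38, 6.52 and 6.36 in the Cl-BBQ arrays. Pold1, its catalytic subunit, fell, with log2 differences of -0.53 ± 0.13 (SE) for TCDD and -0.50 ± 0.12 for Cl-BBQ (limma, adjusted p = 0.019 and 0.012), although Cl-BBQ replicate 1 (6.69) overlapped vehicle replicate 4 (6.68). For Pold1 with TCDD the call was lost in 4 of 22 alternative settings (adjusted p from 0.0086 to 0.063 over all of them), among these the fits without vehicle replicate 1 or 3 or TCDD replicate 1. For Pold1 with Cl-BBQ the call was lost in 1 of 22 alternative settings (adjusted p from 0.0037 to 0.052 over all of them) (replicate block). The accessory subunits Pold2 and Pold3 were called with Cl-BBQ and not with TCDD. Pold2 had log2 levels of 8.05, 7.98, 7.78 and 7.53 in the vehicle arrays, 7.38, 7.23, 7.24 and 7.53 in the TCDD arrays and 7.15, 7.03, 7.57, 7.07 and 6.61 in the Cl-BBQ arrays. TCDD arrays did not exceed the lowest vehicle array, and 1 Cl-BBQ array (7.57) did. Pold2 differed from vehicle by -0.49 ± 0.17 (SE) on the log2 scale with TCDD and by -0.75 ± 0.16 with Cl-BBQ (limma, adjusted p = 0.12 and 0.0061). Pold3 had log2 levels of 7.55, 7.23, 6.95 and 7.10 in the vehicle arrays, 6.73, 6.94, 6.77 and 6.64 in the TCDD arrays and 5.81, 6.78, 6.46, 6.66 and 6.72 in the Cl-BBQ arrays. Both ligand groups lay below vehicle, with Cl-BBQ replicate 1 well under the rest, and Pold3 differed from vehicle by -0.44 ± 0.19 (SE) on the log2 scale with TCDD and by -0.72 ± 0.18 with Cl-BBQ (limma, adjusted p = 0.23 and 0.015). For Pold3 with Cl-BBQ the call was lost in 1 of 22 alternative settings (adjusted p from 0.0068 to 0.061 over all of them), among these the fit without vehicle replicate 1. With no direct test passed between the ligands, these calls with 1 ligand do not show that the ligands differed.

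PCNA is the ring that tethers polymerases to DNA, and the RFC complex loads it. All 5 measured genes were called lower with Cl-BBQ (median -0.60) and 3 of 5 with TCDD (median -0.48). Pcna fell, with log2 differences of -0.48 ± 0.08 (SE) for TCDD and -0.60 ± 0.08 for Cl-BBQ (limma, adjusted p = 0.0022 and 0.00012). Rfc3 had the largest difference of the group. Rfc3 had log2 levels of 7.14, 6.85, 7.45 and 6.53 in the vehicle arrays, 6.35, 5.89, 6.20 and 5.99 in the TCDD arrays and 5.11, 6.01, 5.93, 6.11 and 5.63 in the Cl-BBQ arrays. The vehicle arrays spread from 6.53 to 7.45 and stayed above all treated arrays, and Rfc3 fell, with log2 differences of -0.89 ± 0.22 (SE) for TCDD and -1.23 ± 0.21 for Cl-BBQ (limma, adjusted p = 0.024 and 0.00094). For Rfc3 with TCDD the call was lost in 5 of 22 alternative settings (adjusted p from 0.0061 to 0.081 over all of them), among these the fits without vehicle replicate 1 or 3 or TCDD replicate 2 or 4. Rfc5, another small loader subunit, fell, with log2 differences of -0.82 ± 0.13 (SE) for TCDD and -0.92 ± 0.13 for Cl-BBQ (limma, adjusted p = 0.0013 and 0.00018). Rfc1, the large subunit that makes the loader specific for PCNA, was at the threshold with TCDD. Rfc1 had log2 levels of 8.04, 7.62, 7.42 and 7.66 in the vehicle arrays, 7.33, 7.18, 7.33 and 7.28 in the TCDD arrays and 7.05, 7.20, 7.24, 7.09 and 7.23 in the Cl-BBQ arrays. Neither ligand group overlapped vehicle, and Rfc1 differed from vehicle by -0.41 ± 0.12 (SE) on the log2 scale with TCDD and by -0.53 ± 0.11 with Cl-BBQ (limma, adjusted p = 0.051 and 0.005). Rfc1 with TCDD passed in 6 of 22 alternative settings (adjusted p from 0.017 to 0.14 over all of them), among these the fits without vehicle replicate 3 or Cl-BBQ replicate 1. Rfc2 had log2 levels of 7.31, 7.26, 7.25 and 6.91 in the vehicle arrays, 6.66, 6.81, 6.97 and 6.94 in the TCDD arrays and 6.57, 6.66, 6.78, 6.90 and 6.68 in the Cl-BBQ arrays. Vehicle replicate 4 (6.91) stood below its group and below the 2 highest TCDD arrays. Rfc2, a small subunit, differed from vehicle by -0.34 ± 0.11 (SE) on the log2 scale with TCDD and by -0.46 ± 0.11 with Cl-BBQ (limma, adjusted p = 0.1 and 0.0097). Rfc2 with TCDD passed in 1 of 22 alternative settings (adjusted p from 0.031 to 0.26 over all of them), among these the fit without vehicle replicate 4. For Rfc2 with Cl-BBQ the call was lost in 1 of 22 alternative settings (adjusted p from 0.0028 to 0.054 over all of them) (replicate block). The probe set that Rfc4 shares with Eif4a2 gave -1.0 and -1.17, which cannot be assigned to either gene.

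RPA coats the single strands at the fork, and its subunit genes gave different results. Rpa3, the small subunit, fell. Rpa3 had log2 levels of 9.70, 9.55, 9.68 and 9.58 in the vehicle arrays, 8.91, 8.78, 8.70 and 9.10 in the TCDD arrays and 8.52, 8.97, 9.09, 8.85 and 8.93 in the Cl-BBQ arrays. Treated arrays reached 9.10 at most and vehicle arrays 9.55 at least, and Rpa3 fell, with log2 differences of -0.75 ± 0.12 (SE) for TCDD and -0.76 ± 0.12 for Cl-BBQ (limma, adjusted p = 0.0013 and 0.0004). A further Rpa3 probe set gave -0.85 and -0.95. Rpa1, the large DNA-binding subunit, was the one member whose ligand arrays all lay above all vehicle arrays, in each comparison; over all tested genes 6.31% and 6.08% did so. Rpa1 had log2 levels of 8.68, 8.92, 8.84 and 8.78 in the vehicle arrays, 8.97, 9.05, 9.0 and 9.03 in the TCDD arrays and 9.02, 9.08, 9.0, 9.03 and 9.05 in the Cl-BBQ arrays. The lowest treated array (8.97) was just above the highest vehicle array (8.92), and Rpa1 differed from vehicle by 0.21 with TCDD (95% interval 0.04 to 0.37) and 0.23 with Cl-BBQ (0.07 to 0.39), with adjusted p of 0.16 and 0.06 (limma). Rpa1 with Cl-BBQ passed in 3 of 22 alternative settings (adjusted p from 0.017 to 0.18 over all of them), namely the stricter filter on dim probe sets, the mean of all probe sets of a gene, and the trended, robust variance. A further Rpa1 probe set gave 0.24 and 0.33. Rpa2, the middle subunit, differed by -0.16 with TCDD (95% interval -0.45 to 0.14) and -0.25 with Cl-BBQ (-0.53 to 0.03), with adjusted p of 0.63 and 0.28 (limma). The complex as a whole had a median of -0.16 and -0.25, with 1 of 3 genes called lower with each ligand.

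On the lagging strand, Okazaki fragments are trimmed by FEN1 and DNA2 and sealed by DNA ligase I, the product of Lig1. All 3 genes were called lower with Cl-BBQ (median -0.86) and 2 with TCDD (median -0.62). Lig1 had log2 levels of 8.70, 8.45, 8.73 and 8.15 in the vehicle arrays, 7.32, 6.95, 7.27 and 7.25 in the TCDD arrays and 7.27, 6.83, 6.76, 6.97 and 7.09 in the Cl-BBQ arrays. The gap between the lowest vehicle array and the highest treated array was wide, and Lig1 fell, with log2 differences of -1.31 ± 0.15 (SE) for TCDD and -1.52 ± 0.14 for Cl-BBQ (limma, adjusted p = 5e-05 and 3.2e-06), a 2.48-fold and a 2.87-fold lower level. Fen1 had log2 levels of 5.96, 6.29, 5.82 and 5.70 in the vehicle arrays, 5.48, 5.41, 5.10 and 5.31 in the TCDD arrays and 5.63, 5.06, 5.30, 5.09 and 5.15 in the Cl-BBQ arrays. Treated arrays lay at 5.63 or lower and the lowest vehicle array at 5.70, and Fen1 fell, with log2 differences of -0.62 ± 0.15 (SE) for TCDD and -0.69 ± 0.14 for Cl-BBQ (limma, adjusted p = 0.019 and 0.0039). A further Fen1 probe set, above the floor in 10 arrays, gave -0.35 and -0.10, and with the mean of both sets the adjusted p was 0.19 and 0.21, above the threshold. For Fen1 with TCDD the call was lost in 4 of 21 alternative settings (adjusted p from 0.007 to 0.19 over all of them), among these the fits without vehicle replicate 1 or 2 or TCDD replicate 3. Dna2 was near the floor. Dna2 had log2 levels of 5.16, 4.97, 4.82 and 4.98 in the vehicle arrays, 4.84, 4.54, 4.58 and 4.07 in the TCDD arrays and 4.22, 3.58, 4.05, 4.33 and 4.44 in the Cl-BBQ arrays. TCDD replicate 1 overlapped vehicle replicate 3, the Cl-BBQ arrays lay below vehicle with a mean of 4.12 under the floor, and Dna2 differed from vehicle by -0.47 ± 0.18 (SE) on the log2 scale with TCDD and by -0.86 ± 0.17 with Cl-BBQ (limma, adjusted p = 0.17 and 0.0039).

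CAF-1 places new histones on the copied DNA, and the 2 of its subunit genes that were in the set gave different results. Chaf1a, the large subunit, had the largest difference of all members with TCDD and, to 2 decimals, shared it with Rrm1 with Cl-BBQ. Chaf1a had log2 levels of 6.67, 6.63, 6.88 and 6.21 in the vehicle arrays, 4.94, 5.30, 5.57 and 4.59 in the TCDD arrays and 5.15, 4.76, 5.02, 5.0 and 5.04 in the Cl-BBQ arrays. The highest treated array (5.57) lay well below the lowest vehicle array (6.21), and Chaf1a fell, with log2 differences of -1.50 ± 0.19 (SE) for TCDD and -1.60 ± 0.18 for Cl-BBQ (limma, adjusted p = 0.00014 and 2.2e-05), a 2.82-fold and a 3.04-fold lower level. Chaf1b had log2 levels of 6.25, 6.30, 5.76 and 5.83 in the vehicle arrays, 6.16, 5.85, 5.70 and 5.68 in the TCDD arrays and 5.83, 5.62, 5.93, 5.80 and 5.53 in the Cl-BBQ arrays. Here the groups overlapped, and Chaf1b, the middle subunit, differed from vehicle by -0.19 with TCDD (95% interval -0.51 to 0.13) and -0.29 with Cl-BBQ (-0.60 to 0.01), with adjusted p of 0.58 and 0.23 (limma). The vehicle arrays of Chaf1b formed a higher and a lower pair, and the lower pair lay within the range of the treated arrays.

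The nucleotide enzymes were called lower without exception, 5 of 5 with TCDD (median -0.95) and 5 of 5 with Cl-BBQ (median -1.23), and in none of them did a treated array reach the vehicle range. Ribonucleotide reductase makes deoxynucleotides from ribonucleotides, and both of its subunit genes fell more than 2-fold. Rrm1 had log2 levels of 9.10, 9.04, 8.81 and 8.58 in the vehicle arrays, 7.75, 7.43, 7.75 and 7.60 in the TCDD arrays and 7.16, 7.32, 7.17, 7.40 and 7.37 in the Cl-BBQ arrays. Vehicle, TCDD and Cl-BBQ arrays formed 3 separate steps, and Rrm1, the large catalytic subunit, fell, with log2 differences of -1.25 ± 0.12 (SE) for TCDD and -1.60 ± 0.12 for Cl-BBQ (limma, adjusted p = 1.8e-05 and 4e-07), a 2.38-fold and a 3.02-fold lower level. Rrm2 had log2 levels of 10.56, 10.64, 10.57 and 10.55 in the vehicle arrays, 9.37, 9.50, 9.58 and 9.53 in the TCDD arrays and 8.85, 9.56, 9.07, 9.32 and 9.10 in the Cl-BBQ arrays. The vehicle arrays lay between 10.55 and 10.64, the treated arrays at 9.58 or lower, and Rrm2, the S phase small subunit, fell, with log2 differences of -1.09 ± 0.13 (SE) for TCDD and -1.40 ± 0.12 for Cl-BBQ (limma, adjusted p = 7.4e-05 and 1.8e-06). A further Rrm2 probe set gave -0.96 and -1.32. Tyms, thymidylate synthase, fell, with log2 differences of -0.95 ± 0.14 (SE) for TCDD and -1.23 ± 0.14 for Cl-BBQ (limma, adjusted p = 0.0007 and 2.2e-05). Tk1, the thymidine kinase of S phase, fell, with log2 differences of -0.62 ± 0.17 (SE) for TCDD and -0.92 ± 0.16 for Cl-BBQ (limma, adjusted p = 0.038 and 0.0011). For Tk1 with TCDD the call was lost in 9 of 22 alternative settings (adjusted p from 0.0092 to 0.1 over all of them), among these the fits without vehicle replicate 1 or 2 or TCDD replicate 1, 2, 3 or 4 or Cl-BBQ replicate 3. Dut, which removes dUTP and so keeps uracil out of DNA, changed least of the 5 with Cl-BBQ, while with TCDD it and Tk1 had the smallest differences. Dut had log2 levels of 9.52, 9.32, 9.07 and 9.05 in the vehicle arrays, 8.65, 8.55, 8.59 and 8.62 in the TCDD arrays and 8.48, 8.62, 8.60, 8.55 and 8.34 in the Cl-BBQ arrays. Dut fell, with log2 differences of -0.64 ± 0.11 (SE) for TCDD and -0.72 ± 0.10 for Cl-BBQ (limma, adjusted p = 0.002 and 0.00025). With the mean of both Dut probe sets, 1 of which was under the floor in all arrays, the adjusted p was 0.34 and 0.13, above the threshold.

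**Figure D3:**
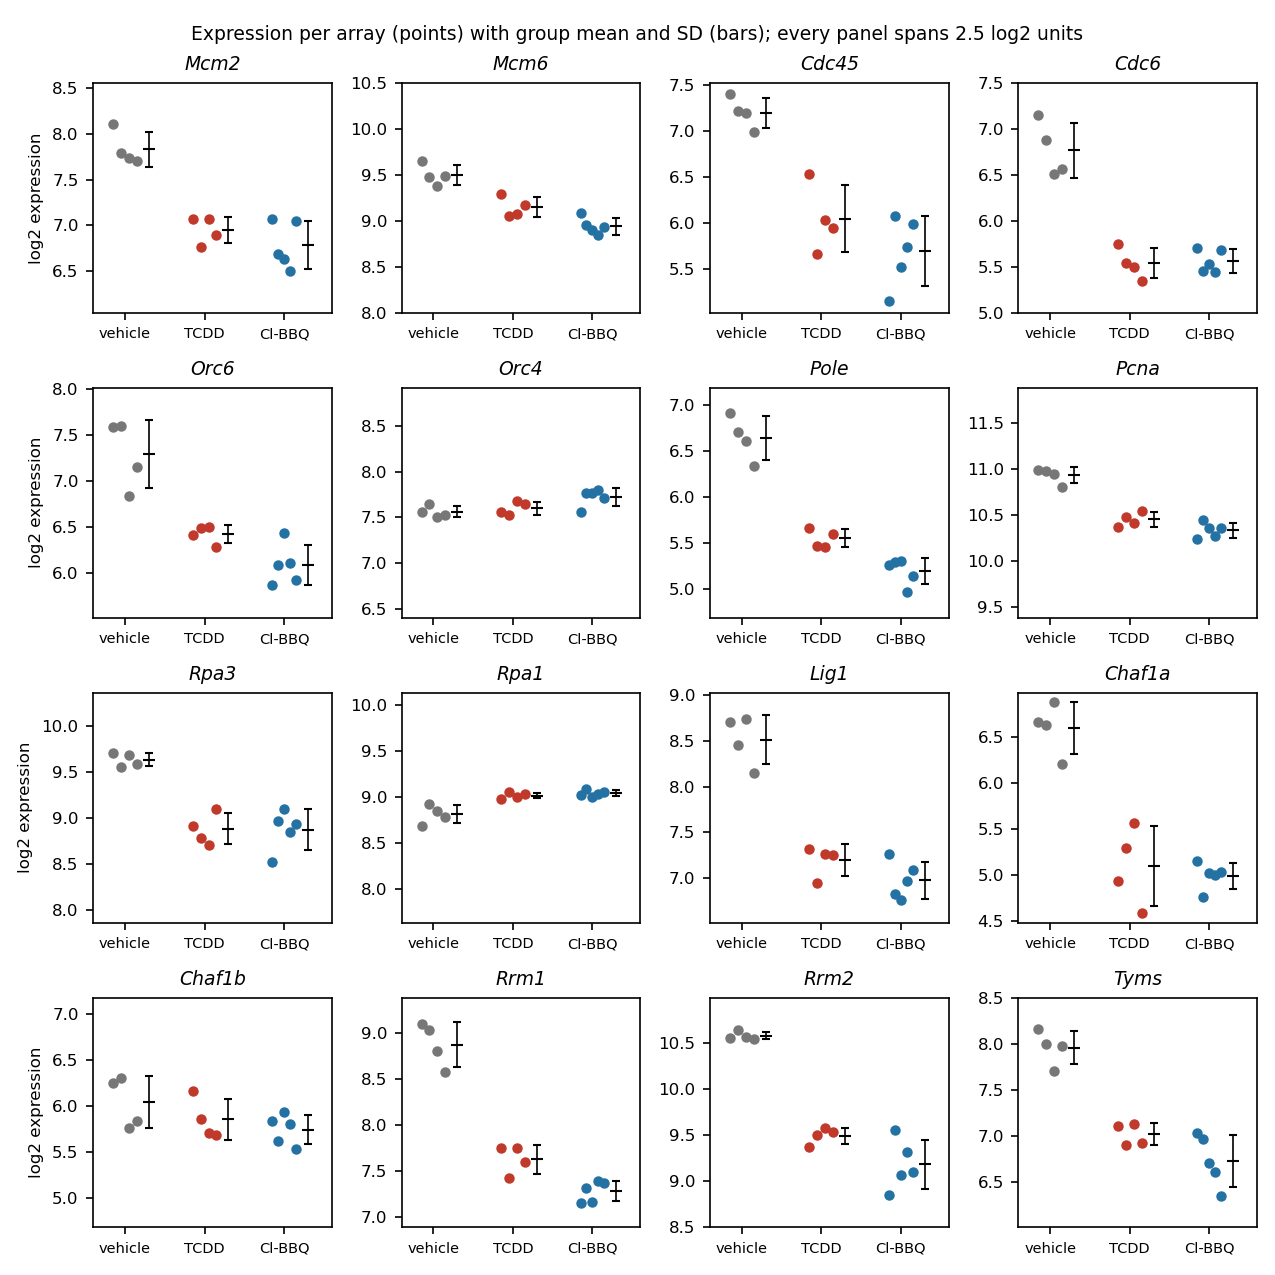
Log2 expression (vertical axis) in each array for 16 members, with vehicle, TCDD and Cl-BBQ side by side and the group mean ± SD as the bar; every panel spans 2.5 log2 units. Rrm1, Lig1 and Pole show treated arrays well below vehicle, Orc4 and Chaf1b show overlapping groups, and Rpa1 shows treated arrays slightly above vehicle.

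The ligand groups were also set against each other directly, although dose and number of injections differed between them, so that a difference belongs to the regimen and not to the compound alone. No member passed (limma), the smallest adjusted p being 0.57 for Pole, and 3 of 12710 genes (0.0236%) passed overall. Before adjustment, 7 members had a p under 0.05, namely Mcm6, Mcm7, Orc6, Pole, Dna2, Rrm1 and Rrm2, each lower with Cl-BBQ; 815 of all tested genes did so. The median difference of the members, Cl-BBQ minus TCDD, was -0.09, and 36 of 48 members (75%) were below 0, against 51.4% of all tested genes. The Cl-BBQ arrays lay wholly below the TCDD arrays for Mcm7, Pole, Rrm1 and Tk1, against 1.08% of all tested genes.

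Pole had the smallest p of the direct comparison, with a log2 difference of -0.36 ± 0.12 (SE; 95% interval -0.60 to -0.11; limma, adjusted p = 0.57). Rrm1 differed by -0.35 ± 0.12 (-0.60 to -0.10, adjusted p = 0.59), Mcm7 by -0.25 ± 0.09 (-0.43 to -0.06, adjusted p = 0.61) and Rrm2 by -0.31 ± 0.12 (-0.57 to -0.06, adjusted p = 0.67), all with limma. These are a helicase subunit, the leading strand polymerase and both subunits of ribonucleotide reductase. For all 48 members the interval lay within -1 and 1, the lowest bound being -0.80 for Rfc3 and the highest 0.42 for Gins1, so a 2-fold difference between the regimens in either direction lay outside every interval. Differences smaller than that lay inside many of the intervals, which reached 0.29 to either side of the estimate at the median.

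Genes of the same pathway that were not members were examined from separate lists. Of 36 tested fork and origin genes, 15 fell with TCDD and 21 with Cl-BBQ and none rose, with medians of -0.46 and -0.58. Over all tested genes, 3.5% were called lower and 3.21% higher with TCDD, and 6.03% and 5.31% with Cl-BBQ. Ticrr, which brings CDC45 to origins, fell, with log2 differences of -1.09 and -1.67, from a vehicle mean of 5.97 to 4.88 and 4.30, the last just under the floor. Top2a, the topoisomerase that untangles copied DNA, fell (-1.30 and -1.64), as did Clspn, the fork protein of the S phase checkpoint (-0.89 and -1.24). Exo1, an exonuclease, fell as well (-0.73 and -1.11), and the largest adjusted p of these 4 genes was 0.0033 with TCDD and 3.1e-05 with Cl-BBQ (limma). Asf1b also fell, by -1.12 with each ligand (limma, adjusted p = 0.001 with TCDD and 0.00035 with Cl-BBQ). Donson, Top1, Mcm9 and Pold4 differed from vehicle by 0.14 or less on the log2 scale and did not pass. Mtbp differed by 0.07 with TCDD and -0.45 with Cl-BBQ and passed in neither. Fbh1, a helicase that acts on recombination intermediates, lay wholly above vehicle with each ligand, by 0.39 and 0.42, but did not pass (limma, adjusted p = 0.14 and 0.063).

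Nucleotide synthesis and salvage was also covered by genes outside the set. Of 36 tested, 6 fell with TCDD and 8 with Cl-BBQ, Ada rose with Cl-BBQ, and the medians were -0.18 and -0.19. The shares of all tested genes called lower were 3.5% with TCDD and 6.03% with Cl-BBQ. With Cl-BBQ 5.31% of all tested genes were called higher, and 1 of 36 here did not exceed that share. Mthfd1, an enzyme of the folate cycle, fell, with log2 differences of -0.85 and -0.81, and so did Ppat, the committed step of purine synthesis (-0.49 and -0.53). Adk, adenosine kinase, fell (-0.62 and -1.02), as did Dck, which phosphorylates deoxycytidine (-0.56 and -0.87). Ctps, which makes CTP, fell too (-0.55 and -0.39), and the largest adjusted p of these 5 genes was 0.013 with TCDD and 0.0092 with Cl-BBQ (limma). Ada, adenosine deaminase, was 0.52 higher with Cl-BBQ with overlapping arrays (limma, adjusted p = 0.039) and differed by 0.38 with TCDD (adjusted p = 0.21). Among genes above 0 with each ligand that did not pass were Aprt (0.21 and 0.24), Dhodh (0.05 and 0.02) and Samhd1, which destroys deoxynucleotides (0.05 and 0.15). Tk2 and Guk1 were above 0 with Cl-BBQ alone (0.15 and 0.18) and did not pass. Rrm2b, the reductase subunit used outside S phase, differed by 0.09 and 0.22 and did not pass (adjusted p = 0.82 and 0.40), beside the falls of Rrm1 and Rrm2.

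Among 28 tested genes that control the G1 to S step, 8 fell and 1 rose with TCDD (median -0.30), and 12 fell and 3 rose with Cl-BBQ (median -0.33). Of all tested genes, 3.5% were called lower with TCDD and 6.03% with Cl-BBQ. The shares called higher were 3.21% and 5.31%, and 1 of 28 with TCDD is near the first of these. E2f8, a repressor-type E2F, fell, with log2 differences of -1.15 and -1.73, and so did Ccna2, the S phase cyclin (-0.94 and -1.26). Cdk1, the kinase of mitotic entry, fell (-1.07 and -1.55), as did Cdkn2c, an inhibitor of CDK4 and CDK6 (-0.93 and -1.33), and the largest adjusted p of these 4 genes was 0.00034 with TCDD and 3.5e-06 with Cl-BBQ (limma). The activator E2f1 differed by -0.30 and -0.32 and did not pass (adjusted p = 0.43 and 0.29), while E2f3 fell (-0.55 and -0.80). Cdkn1a, the CDK inhibitor p21, went the other way, by 1.05 ± 0.22 (SE) and 1.30 ± 0.20 (limma, adjusted p = 0.007 and 0.00051), with arrays that overlapped vehicle for TCDD and lay wholly above it for Cl-BBQ. Ccnd3, cyclin D3, and Myc, a driver of cell growth, were 0.44 and 0.73 higher with Cl-BBQ (adjusted p = 0.012 and 0.0027) and differed by 0.30 and 0.33 with TCDD, which did not pass. E2f5 (0.39 and 0.01), Ccnd1 (0.16 and 0.04) and Cdkn1b (0.04 and 0.08) were above 0 with each ligand and did not pass.

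**Figure D4:**
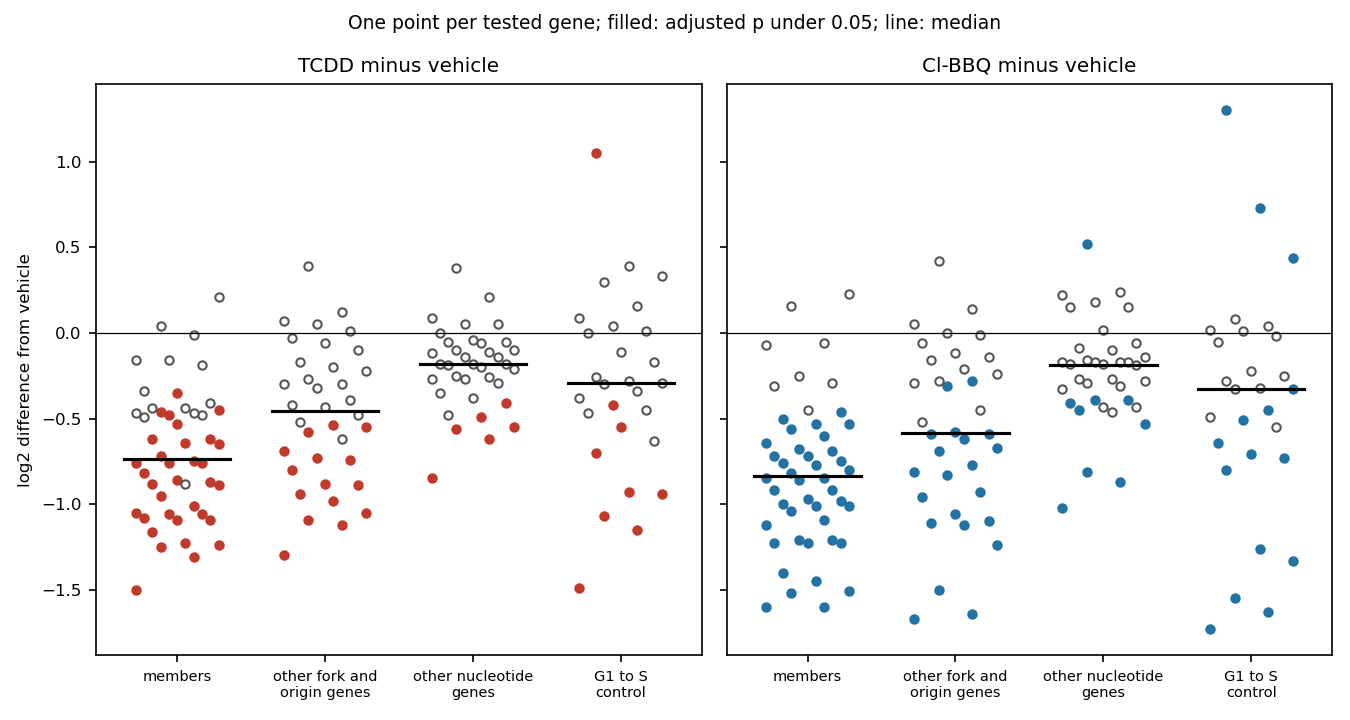
Log2 difference from vehicle (vertical axis) for each tested gene of the members and of the fork and origin, nucleotide and G1 to S lists, with TCDD on the left and Cl-BBQ on the right; filled points passed the test and lines are medians. The members lie lowest (medians -0.74 and -0.83), the other nucleotide genes nearest to 0 (-0.18 and -0.19), and the highest point in the G1 to S list is Cdkn1a (1.05 and 1.30).

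The sorted cells were checked against marker genes. All 8 measured T cell markers were above the floor, Cd4 with group means of 10.52 (vehicle), 10.58 (TCDD) and 10.58 (Cl-BBQ), and Thy1 was the one called, 0.30 and 0.36 higher. The mean level of the T cell list ran from 10.98 to 11.24 with vehicle, 11.27 to 11.33 with TCDD and 11.28 to 11.35 with Cl-BBQ. Of other lists, Cd22 (B cell) and Cybb (myeloid) were lower with both ligands (log2 differences of -2.14 and -2.07, and of -2.15 and -2.48). The B cell list mean was 5.18 to 5.43 with vehicle, 4.90 to 5.14 with TCDD and 4.99 to 5.21 with Cl-BBQ, with 2 of 7 markers under the floor in all arrays and Ighm near 10.8 in all groups. The myeloid and dendritic list mean was 3.87 to 3.99, 3.61 to 3.87 and 3.53 to 3.84, with 7 of 12 markers under the floor in all arrays. The CD8 list (5.28 to 5.55, 5.34 to 6.01 and 5.66 to 6.12), the NK list (4.14 to 4.30, 3.88 to 4.27 and 3.90 to 4.27) and the erythroid list (5.09 to 5.40, 5.05 to 5.30 and 5.00 to 5.53) had no called gene. The part of these cells in the lower replication RNAs was not tested.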

How the data were processed

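Expression was measured on 13 single-colour arrays of sorted donor CD4+ T cells, 4 vehicle, 4 TCDD and 5 Cl-BBQ, grouped by their labels. Per the submitters' processing notes, the authors made the deposited log2 values with RMA, a background correction followed by quantile normalization and a summary per probe set. No source used here gives its version or the software. The median of an array was 4.27 to 4.33 and the correlation of 2 arrays 0.943 to 0.976; no pair was identical, and the number of arrays limits the precision. Of 41345 probe sets, 23521 had 1 symbol in the platform annotation, 1814 several and 16010 were unnamed here.

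A single fit in limma 3.58.1 under R 4.3.3 estimated the mean of each group for the 12710 genes above 4.31 in at least 4 arrays, and contrasts were tested two-sided with eBayes (10 residual and 4.22 prior degrees of freedom) and Benjamini-Hochberg adjustment over those genes in each contrast; an adjusted p under 0.05 was called. The pipeline was tested on simulated data. Promoter windows were read from RefSeq with Python 3.11.15. Figures were drawn with matplotlib 3.10.9.

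The members and lists were chosen with earlier results of these data known, and no list was tested as a set. Values in every array are given for the members of each complex with the largest and smallest difference with Cl-BBQ, those called with 1 ligand, and the 4 with the smallest p between the ligands. Of other lists, up to 4 genes with the smallest adjusted p per comparison are named, with genes against the majority. E2f1, E2f3 and Rrm2b were added after their values were seen. Pole3 and Pole4 were also named outside this rule. Alternatives left out each array in turn, changed the filter, the probe set rule, the scaling and the variance model, used only the groups compared, weighted arrays, or blocked on replicate number. Same-numbered arrays did not deviate together (12 pairs, correlations of -0.06 to 0.08), so the numbers were not treated as pairs.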

Additional observations from a re-analysis of the deposited data

Results flagged for a closer look

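In 5 of 144 sets of arrays (48 members in 3 groups) 1 array stood apart from the rest of its group by Dixon's criterion at the 95% level, a number that chance alone is expected to give in a family of this size. Mcm10 was at 6.54 in vehicle replicate 1, above the other vehicle arrays, and Rfc2 was at 6.91 in vehicle replicate 4, below them. Gmnn was at 6.41 in TCDD replicate 4, below the other TCDD arrays. With Cl-BBQ, Mcm3 was at 7.28 in replicate 1, above its group, and Orc2 was at 6.09 in replicate 2, below it. No array held more than 1 of these values.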

How the results depend on the processing

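Of the 33 members called lower with TCDD, 24 were called under every alternative that tested them, and of the 40 with Cl-BBQ, 32 were. Leaving out 1 array gave 25 to 35 members lower with TCDD and 37 to 41 with Cl-BBQ, 644 to 955 and 1185 to 1433 called genes in all, and 0 to 5 called genes between the ligands. With the replicate block, 29 and 36 members were called lower and 0 between the ligands, and 714, 1114 and 0 genes in all. The stricter filter tested 36 members and called 26 and 30 lower. Of the 6390 genes it tested, 796 and 1267 were called in either direction, against 853 and 1441 of 12710 in the main fit. One member, Rpa1, was called higher with Cl-BBQ (1 against 0) under the stricter filter, the mean of all probe sets of a gene and the trended, robust variance. The 3 genes called between the ligands became 0 with the replicate block, with no filter and with only the groups compared, 5 with the mean of probe sets, 6 with quantile normalization, with centring and with the trended, robust variance, and 7 with array weights; no member was called under any of these. Orc5 with TCDD (-0.01) ranged from -0.10 (without TCDD replicate 3) to 0.03 (without TCDD replicate 2, or without TCDD replicate 4) when 1 array was left out, and was 0 after quantile normalization and 0.01 after centring. The cause of these changes was not tested. The median difference of all tested genes between 2 groups was at most 0.006 in size as deposited, 0.002 after quantile normalization and 0.017 after centring. Signal over background limits Orc1 and Dna2, whose Cl-BBQ means lay under the floor.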
